A study of Mus with 96 samples.

Results

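The genes described here move cholesterol and plant sterols out of cells, or set how strongly the exporters are transcribed. They are the sterol transporters Abcg5, Abcg8, Abca1, and Abcg1, the oxysterol receptors Nr1h3 (LXRα) and Nr1h2 (LXRβ), the lysosomal sterol carriers Npc1 and Npc2, the HDL receptor Scarb1, and the cholesterol esterifying enzyme Soat2. Members were taken by gene name, 10 of the 55487 genes in the count table, and all 10 were among the 15548 genes kept for testing. Livers of 96 mice on a C57BL/6J background were sequenced by BRB-seq, which reads the 3′ portion of barcoded mRNA. Mice labelled Hep-Bmal1KO carried 2 floxed Bmal1 alleles and Alb-Cre, which is active in hepatocytes, so other liver cells keep the gene. Their littermates labelled Hep-Bmal1WT carried the same floxed alleles without Cre. At 8 to 10 weeks of age, male and female mice under 12 hours of light and 12 hours of dark were fed for 2 weeks, either normal chow (NC) or cdHFD, a diet high in fat, without choline, and with added cholesterol. Each of the 4 combinations had 24 livers, 4 at each of zeitgeber times (ZT) 2, 6, 10, 14, 18, and 22, where ZT0 is lights on. Livers are called WT-labelled and KO-labelled below, since the labels could be checked against expression but not against DNA.

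LXRα and LXRβ bind oxysterols, pair with RXR, and raise transcription of genes that lower cell cholesterol, among them Abca1, Abcg1, Abcg5, and Abcg8. In the liver, ABCG5 and ABCG8 form 1 heterodimer at the canalicular membrane that secretes sterols into bile, whereas ABCA1 loads cholesterol onto apolipoprotein A-I to form HDL. The liver clock, in which BMAL1 is an activator, drives daily rhythms in many genes of lipid metabolism.

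Libraries held 1861740 to 9718615 reads on genes (median 6412078), and the members' totals over all libraries ran from 14037 reads for Soat2 to 112816 for Npc2. The targeted gene, listed as Arntl, checks the labels poorly by its level because the 3′ reads may lie outside the deleted part. Its median at ZT22 on NC was 17.6 CPM in WT-labelled livers and 8.19 CPM in KO-labelled livers, and at ZT10 it was 0.722 and 7.07 CPM. Each library was therefore placed between the medians of both labels on 10 clock genes, Arntl among them, and on 20 other genes. On both sets, 7 of the 96 libraries lay nearer the other genotype, and on at least 1 set 14 did. The 7 stayed in every comparison, and tests of members that rest on them are given with and without them. CPM ranges, means, and marker sums include them unless stated. They were found by the expression of genes outside the group, and leaving them out selects libraries by expression. The sample titles and count headers name no plate. The 12 plate columns used here were assigned from the order of the samples, which runs by genotype and diet. That each held 1 genotype and diet follows from this assignment. Whether libraries were handled in such columns is not known, and if they were, column and group cannot be told apart. Reads that did not align made up 17.4% to 34.05% of a library in WT-labelled livers on NC and 14.8% to 26.3% in KO-labelled livers on NC, and their part in the NC results was not tested.

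Abcg5 and Abcg8, the biliary sterol pair, passed between genotype labels on both diets, and Abcg1 had the largest change between diets. On NC, 4 of the 10 genes passed the test between genotype labels, 3 higher and 1 lower in KO-labelled livers, where 12.5% of all genes tested passed, 7.08% higher and 5.45% lower. On cdHFD, 3 passed, all higher, against 9.67% of all genes, 4.75% higher and 4.92% lower. Between diets, 5 passed in WT-labelled livers and 7 in KO-labelled livers, against 55.7% (28.4% higher and 27.3% lower) and 61.9% (32.4% higher and 29.6% lower) of all genes, so the members' shares were near the background. Without the 7 libraries against their label, these counts were 4, 3, 4, and 8, where 2649, 2024, 8391, and 9590 of all 15548 genes passed. Of 6 hepatocyte markers, Asgr1 was higher and Alb lower in KO-labelled livers on NC, with a list median of 0.09. Their summed level, most of it Alb, had a median of 83923 against 134072 CPM there. Of 4 cholangiocyte markers, 1 was higher on NC and 2 were higher on cdHFD in KO-labelled livers. The part of these cells in the genotype results was not tested. The members' median log2 fold change between genotype labels was 0.03 on NC and 0.04 on cdHFD, beside medians of -0.01 and 0.01 over all genes.

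**Figure D1:**
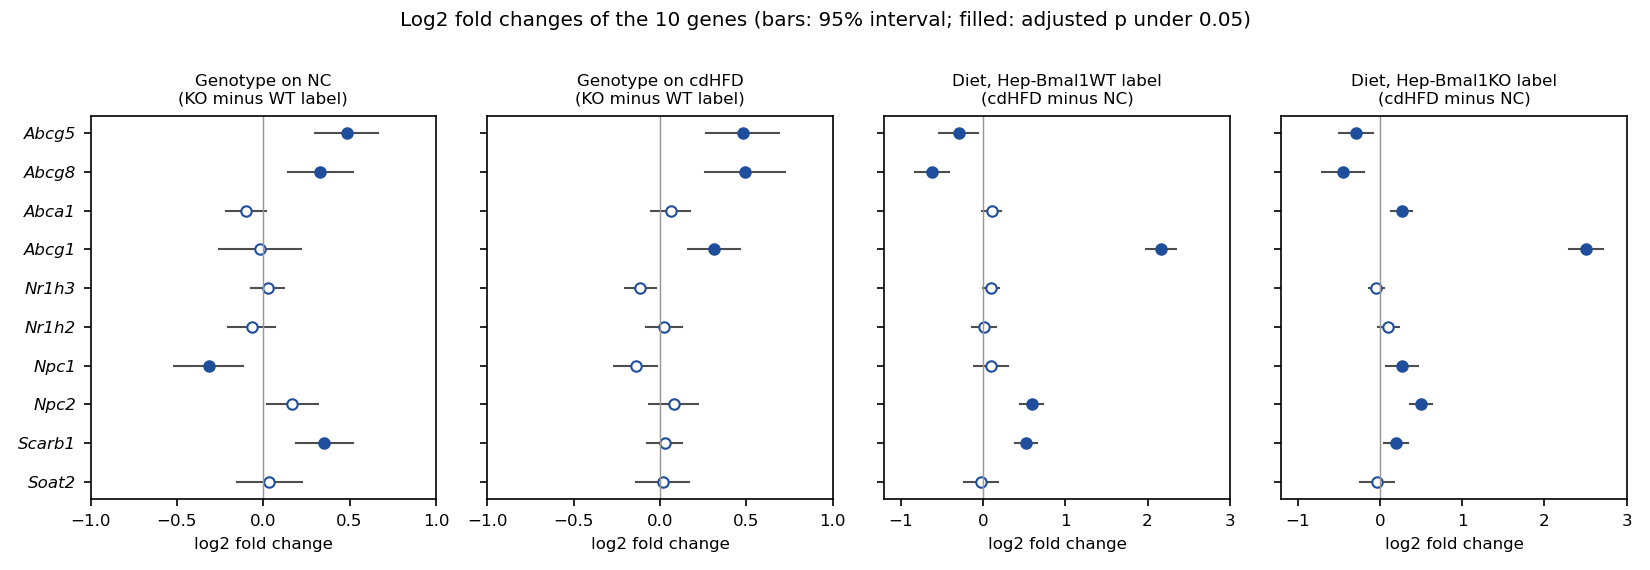
Log2 fold changes of the 10 genes (x axis) between genotype labels on NC and on cdHFD and between diets within each label, with 95% intervals as bars and filled circles where the adjusted p was under 0.05. Abcg5 and Abcg8 lie to the right in both genotype panels and to the left in both diet panels, and Abcg1 stands at 2.16 and 2.50 in the diet panels.

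Abcg5 and Abcg8 encode the subunits of the biliary sterol exporter. They are neighbours on chromosome 17, Abcg5 (ENSMUSG00000040505) from 84658174 to 84683011 and Abcg8 (ENSMUSG00000024254) from 84676302 to 84700333 in RefSeq for GRCm38.p6, the assembly of mm10. These spans overlap, and how reads in the shared stretch were assigned is not given in the sources used here, so part of the similarity of both genes may come from shared reads. After the means of the 24 combinations of label, diet, and ZT were taken out, log2 CPM of both genes had a Pearson r of 0.72 over the 96 libraries, the highest of any pair of members.

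Abcg5 was higher in KO-labelled livers on both diets. On NC its CPM ran from 17.9 to 87.1 with a median of 42.6 in WT-labelled livers, and from 30.4 to 90.4 with a median of 57.8 in KO-labelled livers. On cdHFD the lowest, median, and highest values were 15.5, 31.0, and 89.1 CPM against 19.3, 45.5, and 84.6 CPM. The groups overlapped widely on both diets, and each pools all times of day. With ZT in the model, the log2 fold change was 0.48 on NC (standard error [SE] 0.09, adjusted p = 0.000193) and 0.48 on cdHFD (SE 0.11, adjusted p = 0.00198). The difference was 0.55 and 0.51 without the libraries against their label. On cdHFD the call was lost when replicate 3 of every group was left out (log2 fold change 0.31, adjusted p = 0.12).

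Abcg8 followed the same directions. On NC the lowest, median, and highest values were 15.8, 49.4, and 105.8 CPM in WT-labelled livers and 20.9, 60.2, and 124.8 CPM in KO-labelled livers. On cdHFD they were 16.9, 33.3, and 72.9 CPM against 15.4, 46.1, and 80.6 CPM. Here too the ranges overlapped. The log2 fold change was 0.33 on NC (SE 0.10, adjusted p = 0.0164) and 0.49 on cdHFD (SE 0.12, adjusted p = 0.00366), and 0.38 and 0.56 without the libraries against their label. The NC call was lost when replicate 1, 2, or 3 was left out of every group (adjusted p = 0.059 to 0.17), and the cdHFD call without replicate 3 (0.058). The genotype by diet term did not pass for either gene (adjusted p = 0.99 for Abcg5 and 0.66 for Abcg8), and its 95% interval was -0.29 to 0.28 for Abcg5 and -0.15 to 0.47 for Abcg8.

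Fitted at single times, the largest genotype differences in the pair were at ZT2 and ZT22 on NC and at ZT22 on cdHFD. At ZT22 on cdHFD, Abcg8 read 17.6, 21.8, 16.9, and 18.9 CPM in the 4 WT-labelled livers and 33.1, 62.96, 24.9, and 59.5 CPM in the 4 labelled Hep-Bmal1KO. No value of one group reached the other, and the log2 difference was 1.26 (SE 0.27, adjusted p = 0.051), just short of the threshold, where 0.0129% of all genes passed. With the libraries against their label, none of them at this time, left out of the fit, the adjusted p was 0.00514. At ZT2 on NC, Abcg5 read 24.5, 32.5, 37.4, and 35.2 CPM against 53.3, 38.3, 69.1, and 86.6 CPM. Again the 4 KO-labelled livers were all above the other 4, with a log2 difference of 0.94 (SE 0.26, adjusted p = 0.052, or 0.026 without the libraries against their label), where 0.894% of all genes passed. Neither gene passed the test of genotype by ZT on either diet (adjusted p = 0.62 for Abcg5 and 0.88 for Abcg8 on NC, and 1 for both on cdHFD, where 0.0386% of all genes passed), so a difference that depends on the time of day was not detectable for them.

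Both genes were lower on cdHFD. Abcg8 fell from 53.3 ± 25.6 CPM on NC to 33.8 ± 14.1 CPM on cdHFD in WT-labelled livers (mean and SD over 24 libraries and all ZTs), a log2 fold change of -0.62 (SE 0.10, adjusted p = 1.16e-06). In KO-labelled livers it fell from 65.03 ± 27.9 to 46.05 ± 18.4 CPM, a log2 fold change of -0.45 (SE 0.13, adjusted p = 0.00254). Abcg5 changed less, by -0.29 in both labels (SE 0.12, adjusted p = 0.0354 and SE 0.10, adjusted p = 0.0124). The TMM scaling factors of the libraries did not overlap between diets, at 0.766 to 0.929 on NC and 1.04 to 1.35 on cdHFD. Diet changes as small as this one, and those of Abca1, Npc1, and Scarb1 in KO-labelled livers below, therefore rest on that scaling. The only other scaling tried was DESeq2's size factors. In WT-labelled livers the Abcg5 call was lost without the libraries against their label, where the log2 fold change was -0.22 (adjusted p = 0.14), and with DESeq2's size factors, where it was -0.26 (adjusted p = 0.065). It was also lost without replicate 2, 3, or 4 (adjusted p = 0.065 to 0.24), and in KO-labelled livers without replicate 1 or 2 (0.091 and 0.062). All 6 hepatocyte markers were also lower on cdHFD in both labels, where 27.3% and 29.6% of all genes were lower. The markers' median log2 fold change was -1.02 and -0.91. Their summed level ran from 74693 to 185048 CPM on NC and from 47756 to 80175 CPM on cdHFD in WT-labelled livers, from 60319 to 192335 and from 40607 to 75589 CPM in KO-labelled livers, and none was at 0. The readings of 74693 and 192335 CPM were libraries against their label. Without such libraries the NC sums ran from 105990 to 185048 CPM in WT-labelled livers and from 60319 to 117313 CPM in KO-labelled livers. In whole liver, fewer cells of a type and less RNA per cell cannot be told apart.

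Abca1 (chromosome 4, 53030789 to 53159988), the exporter that forms nascent HDL, did not pass between genotype labels. Its lowest, median, and highest values on NC were 63.5, 87.7, and 118.7 CPM in WT-labelled livers and 64.2, 81.7, and 118.8 CPM in KO-labelled livers. The 95% interval of the log2 fold change was -0.22 to 0.02 on NC and -0.05 to 0.17 on cdHFD. It was higher on cdHFD in KO-labelled livers, from 83.3 ± 13.1 to 100.4 ± 20.7 CPM (log2 fold change 0.26, SE 0.06, adjusted p = 0.000392), although males alone gave 0.10 (adjusted p = 0.40). In WT-labelled livers it read 89.1 ± 12.97 and 95.9 ± 14.1 CPM, a log2 fold change of 0.10 (SE 0.06, adjusted p = 0.12, or 0.032 with DESeq2's size factors). The 2 diet effects were not shown to differ (genotype by diet, adjusted p = 0.32). The highest readings of the gene, 142.5 and 157.7 CPM, were 2 of the 4 KO-labelled livers on cdHFD at ZT10.

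Abcg1 (chromosome 17, 31057694 to 31117984), which moves cholesterol to mature HDL and is abundant in macrophages, changed most with diet. On NC its values ran from 2.38 to 13.2 CPM in WT-labelled livers and from 4.26 to 12.2 CPM in KO-labelled livers. On cdHFD they ran from 23.8 to 44.1 and from 26.1 to 71.4 CPM. Every liver on cdHFD was above every liver on NC. The log2 fold change was 2.16 (SE 0.09, adjusted p = 2.02e-25), a 4.48-fold rise, in WT-labelled livers and 2.50 (SE 0.11, adjusted p = 4.72e-26), a 5.66-fold rise, in KO-labelled livers.

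On cdHFD, Abcg1 was also higher in KO-labelled livers, with a median of 40.05 CPM against 33.5 CPM. Its highest readings, 68.3 and 71.4 CPM, were both from KO-labelled livers at ZT10. The groups overlapped, and the log2 fold change was 0.31 (SE 0.08, adjusted p = 0.00558), or 0.34 without the libraries against their label. The call was lost when replicate 2 was left out of every group (0.24, adjusted p = 0.12) and in males alone (0.27, adjusted p = 0.15). On NC the log2 fold change was -0.02 (SE 0.12). The genotype by diet term of 0.34 (SE 0.14) did not pass in edgeR's test (adjusted p = 0.18).

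Macrophage markers moved with Abcg1. All 11 were higher on cdHFD in both labels, where 28.4% and 32.4% of all genes were higher. The markers' median log2 fold change was 2.53 and 2.94, and none was at 0. Their summed level ran from 185 to 522 CPM on NC and from 827 to 2109 CPM on cdHFD in WT-labelled livers, and from 159 to 561 and from 1218 to 2566 CPM in KO-labelled livers. Between genotype labels on cdHFD, 5 of the 11 were higher and 1 was lower, against 4.75% and 4.92% of all genes. Gpnmb, a marker of lipid-laden macrophages, read 83.5 and 154 CPM on average, whereas Clec4f, a marker of resident Kupffer cells, read 136 and 107 CPM in WT-labelled livers and Hep-Bmal1KO. Of the stellate cell and fibroblast markers, 6 of 8 were higher in KO-labelled livers on cdHFD, against 4.75% of all genes. The list's sum ran from 543 to 1112 CPM in WT-labelled livers and from 521 to 1672 CPM in KO-labelled livers there. The readings of 1112 and 521 CPM were libraries against their label. The part of these cells in the Abcg1 result was not tested.

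**Figure D2:**
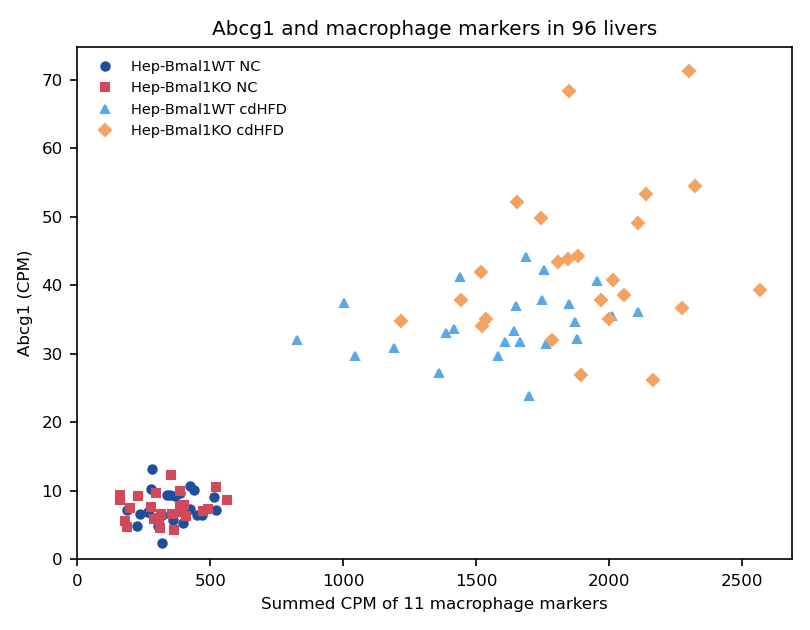
Abcg1 in CPM (y axis) against the summed CPM of 11 macrophage markers (x axis) in the 96 livers, with 1 point per liver and color and shape by label and diet. The livers on NC lie at or below 13.2 CPM of Abcg1 and 561 CPM of the markers, and the livers on cdHFD lie at or above 23.8 and 827 CPM.

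The receptors themselves changed little in level. Nr1h3 (chromosome 2, 91184061 to 91202829), the LXR of high liver abundance, had means of 83.8 ± 11.7, 85.1 ± 9.8, 89.3 ± 9.2, and 82.7 ± 9.7 CPM in WT-labelled livers on NC, Hep-Bmal1KO on NC, Hep-Bmal1WT on cdHFD, and Hep-Bmal1KO on cdHFD. Nr1h2 (chromosome 7, 44549616 to 44553968), the broadly expressed LXR, had 27.3 ± 6.0, 26.05 ± 5.8, 27.5 ± 4.5, and 27.8 ± 3.6 CPM in the same order. Neither passed in any of the 4 comparisons. The largest was Nr1h3 between labels on cdHFD, with a log2 fold change of -0.12 (SE 0.05, adjusted p = 0.11) and a 95% interval of -0.21 to -0.02. Under other settings both could pass between diets. Nr1h3 had an adjusted p of 0.032 with DESeq2's size factors, 0.026 with DESeq2's Wald test, and 0.011 in males alone in WT-labelled livers, and Nr1h2 had 0.032 in KO-labelled livers without the libraries against their label.

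Of 9 partners and coregulators of the LXRs, none passed on NC, where 12.5% of all genes passed. On cdHFD 2 were lower in KO-labelled livers, where 4.92% of all genes were lower. Nr0b2, the corepressor SHP, averaged 40.4 CPM in WT-labelled livers and 25.9 CPM in KO-labelled livers (log2 fold change -0.69, SE 0.18, adjusted p = 0.00671). Rxra, the main RXR of liver and the partner of both LXRs, averaged 125 and 109 CPM (log2 fold change -0.19, SE 0.05, adjusted p = 0.0138). Rxra was also lower on cdHFD than on NC in WT-labelled livers, at 125 against 157 CPM (log2 fold change -0.33, SE 0.06, adjusted p = 3.83e-06), as was the coactivator Ppargc1a at 4.16 against 6.10 CPM (-0.55, SE 0.17, adjusted p = 0.00637). The list's median was -0.06 on NC and -0.05 on cdHFD between labels.

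Other genes known as LXR targets did not move in 1 direction. Of 16, 2 were higher and 1 lower in KO-labelled livers on NC, and 3 were higher and 1 lower on cdHFD, with medians of -0.01 and 0.14. Over all genes, 7.08% were higher and 5.45% lower on NC, and 4.75% higher and 4.92% lower on cdHFD. Lpl, lipoprotein lipase, averaged 58.9 CPM in WT-labelled livers on NC and 325 CPM in KO-labelled livers (log2 fold change 2.996, SE 0.36, adjusted p = 8.89e-08). Scd2, a stearoyl-CoA desaturase, averaged 7.06 and 19.9 CPM (1.54, SE 0.24, adjusted p = 7.34e-06), whereas Pltp, the phospholipid transfer protein of plasma, averaged 82.1 and 50.2 CPM (-0.75, SE 0.15, adjusted p = 0.000334). On cdHFD Lpl (0.84, SE 0.10) and Scd2 (0.39, SE 0.09) were again higher, and Fasn, fatty acid synthase, was lower (-0.75, SE 0.15, adjusted p = 0.000653). Between diets in WT-labelled livers, 8 were higher and 7 lower on cdHFD, where 28.4% of all genes were higher and 27.3% lower. Among them Cd5l, a macrophage secretory protein, rose from 77.1 to 411 CPM (2.41, SE 0.08), and Arl4c, a small GTPase, from 1.90 to 6.71 CPM (1.81, SE 0.17). Scd1, the liver's main desaturase, fell from 6506 to 1809 CPM (-1.84, SE 0.11), and Apoc1 from 19761 to 11742 CPM (-0.75, SE 0.05).

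Npc1, the membrane protein that takes cholesterol out of lysosomes (ENSMUSG00000024413), was lower in KO-labelled livers on NC. Its lowest, median, and highest values were 31.5, 52.5, and 132.7 CPM in WT-labelled livers and 22.7, 42.6, and 136.7 CPM in KO-labelled livers. The ranges overlapped, and the log2 fold change was -0.32 (SE 0.10, adjusted p = 0.0322). Without the libraries against their label it was -0.43 (adjusted p = 0.00139), and the call was lost when replicate 1, 2, or 4 was left out of every group (adjusted p = 0.071 to 0.20).

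At single times, 2 member differences between labels passed, Npc1 at ZT14 and Scarb1 at ZT10, both on NC. At ZT14 the 4 WT-labelled livers read 63.95, 51.9, 53.1, and 61.9 CPM and the 4 labelled Hep-Bmal1KO read 31.3, 22.7, 31.9, and 36.9 CPM. The groups did not overlap, and the log2 difference was -0.91 (SE 0.20, adjusted p = 0.0017), where 4.79% of all genes passed. At ZT10, the time of the wild-type peak, the values were 112.4, 82.2, 132.7, and 104.8 CPM against 47.6, 49.7, 136.7, and 63.1 CPM. The reading of 136.7 CPM was a library against its label. With it, the log2 difference was -0.55 (SE 0.19, adjusted p = 0.12), and without the libraries against their label it was -1.01 (SE 0.18, adjusted p = 5.48e-05). The test of genotype by ZT on NC, which 0.63% of all genes passed, gave an adjusted p of 0.23 for Npc1 and 0.0102 without these libraries.

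On cdHFD, Npc1 did not pass between labels (59.1 ± 12.3 against 53.05 ± 7.9 CPM, log2 fold change -0.14, SE 0.06, adjusted p = 0.17). Between diets it was higher on cdHFD in KO-labelled livers (log2 fold change 0.27, SE 0.10, adjusted p = 0.0145, 0.38 without the libraries against their label, and not past the threshold without replicate 1 or 2, with adjusted p = 0.15 and 0.12) and read 58.6 ± 26.6 and 59.1 ± 12.3 CPM in WT-labelled livers (0.10, SE 0.10, adjusted p = 0.43). The difference between these diet effects did not pass (genotype by diet, adjusted p = 0.51).

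Npc2 (chromosome 12, 84754559 to 84773112), the soluble lysosomal protein that hands cholesterol to NPC1, was higher on cdHFD in both labels. It went from 131 ± 40.6 to 196 ± 54.8 CPM in WT-labelled livers (log2 fold change 0.59, SE 0.07, adjusted p = 8.12e-10) and from 144 ± 36.3 to 202 ± 41.6 CPM in KO-labelled livers (0.50, SE 0.07, adjusted p = 1.22e-08). Npc2 is also expressed in macrophages, and the marker sums above rose with it, so the part of these cells was not tested here either. It did not pass between genotype labels on NC (0.17, SE 0.07, adjusted p = 0.14) or on cdHFD (0.08, SE 0.07, adjusted p = 0.60).

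Scarb1 (chromosome 5, 125277087 to 125341094), the HDL receptor SR-BI that takes up cholesteryl ester and also lets free cholesterol leave the cell, differed between labels on NC. Its lowest, median, and highest values were 72.8, 130.5, and 210.2 CPM in WT-labelled livers and 93.6, 169.6, and 250.1 CPM in KO-labelled livers. The log2 fold change was 0.35 (SE 0.08, adjusted p = 0.00248), or 0.38 without the libraries against their label, and the call was lost without replicate 2 (0.26, adjusted p = 0.090). On cdHFD the medians were 188.0 and 196.0 CPM, with a log2 fold change of 0.03 (SE 0.05, adjusted p = 0.84).

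The genotype difference in Scarb1 depended on diet. The genotype by diet term was -0.33 (SE 0.10, adjusted p = 0.0478), and 3.04% of all genes passed this test. Scarb1 was the only member to pass, with an adjusted p of 0.0276 without the libraries against their label. The call was lost with DESeq2's size factors (adjusted p = 0.059), with no filter beyond 1 count (0.060), and without replicates 1, 2, or 3 in turn (0.15, 0.41, and 0.15). Correspondingly, the diet rise was 0.52 in WT-labelled livers (132 ± 33.2 to 187 ± 26.02 CPM, SE 0.07, adjusted p = 1.62e-09) and 0.19 in KO-labelled livers (168 ± 35.3 to 192 ± 33.4 CPM, SE 0.07, adjusted p = 0.0205). The latter was lost without replicate 3 or 4 (adjusted p = 0.11 and 0.13).

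At ZT10 on NC, Scarb1 read 72.8, 77.3, 99.9, and 100.8 CPM in WT-labelled livers and 172.8, 195.9, 112.1, and 174.8 CPM in KO-labelled livers. All 4 of the latter were higher, and the reading of 112.1 CPM was the library against its label. The log2 difference was 0.90 (SE 0.16, adjusted p = 0.000159), where 2.68% of all genes passed, and 1.05 (SE 0.16) without the libraries against their label. At ZT2 the order of the means was the opposite, 130.8 ± 15.3 against 121.5 ± 29.1 CPM, and the groups overlapped. The test of genotype by ZT on NC gave an adjusted p of 0.086, and 0.0102 without these libraries.

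**Figure D3:**
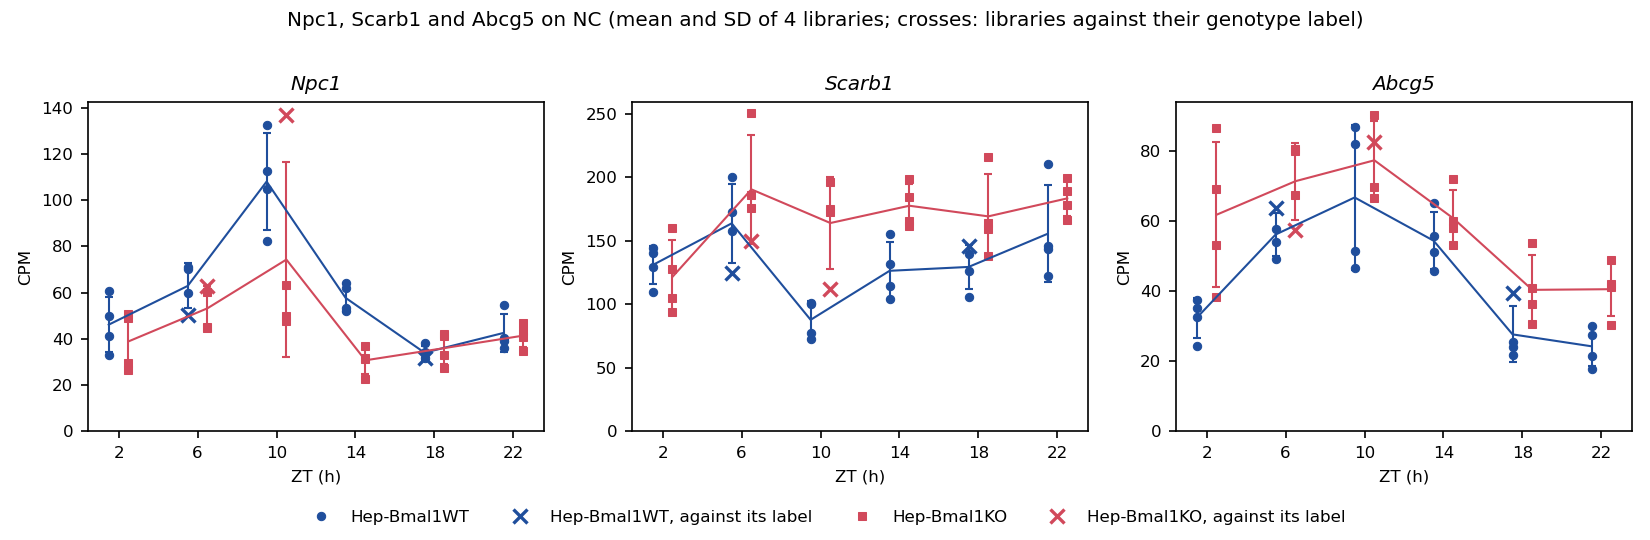
Npc1, Scarb1, and Abcg5 in CPM (y axis) by ZT in hours (x axis) in livers on NC, with 1 point per liver, lines through the means, and bars for the SD of 4 libraries. Crosses are libraries nearer the other genotype than their label, among them the reading of 136.7 CPM of Npc1 and 112.1 CPM of Scarb1 at ZT10 in KO-labelled livers.

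Soat2 (chromosome 15, 102150415 to 102163469), the acyltransferase that stores hepatocyte cholesterol as ester, kept its mean level in every group. The means were 22.3 ± 7.8 and 22.3 ± 6.8 CPM on NC and 21.8 ± 6.8 and 21.8 ± 6.0 CPM on cdHFD for the labels Hep-Bmal1WT and Hep-Bmal1KO. The 95% intervals of the log2 fold change lay within -0.25 to 0.22 in all 4 comparisons. Its relative Soat1, the esterifying enzyme that is abundant in macrophages, read 3.14 CPM on NC and 14.3 CPM on cdHFD in WT-labelled livers (log2 fold change 2.17, SE 0.15, adjusted p = 8.52e-18).

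Soat1 belonged to a list of 19 other sterol transport and ester genes. Of these, 7 were higher and 7 lower on cdHFD in WT-labelled livers, where 28.4% of all genes were higher and 27.3% lower. The list's median was 0.02 beside 0.01 over all genes. Lipa, the lysosomal acid lipase, rose from 140 to 199 CPM (0.54, SE 0.07), Stard4, a cytosolic sterol carrier, fell from 59.3 to 10.1 CPM (-2.53, SE 0.09), and the transporter Abca8a from 51.6 to 19.6 CPM (-1.39, SE 0.08). Between labels on NC, 3 were higher and 1 was lower in KO-labelled livers, where 7.08% of all genes were higher and 5.45% lower. Lamp2, a lysosomal membrane protein, averaged 590 and 737 CPM (0.32, SE 0.05, adjusted p = 1.97e-06), the transporter Abca8b 30.5 and 43.1 CPM (0.54, SE 0.08, adjusted p = 3.06e-06), and Nceh1, a cholesteryl ester hydrolase, 36.3 and 27.1 CPM (-0.42, SE 0.13, adjusted p = 0.0238). On cdHFD again 3 were higher and 1 was lower, where 4.75% of all genes were higher and 4.92% lower. Gramd1b (0.62, SE 0.16), a sterol carrier of membrane contact sites, and Abca8b (0.32, SE 0.09) were higher and Stard4 (-0.43, SE 0.13) was lower.

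Among 12 partners of these transporters in HDL and at the canalicular membrane, 9 were lower and 2 higher on cdHFD in WT-labelled livers (median -0.67), where 27.3% of all genes were lower and 28.4% higher. Apoa1 and Apoa2, the main proteins of HDL, fell from 13825 to 7432 CPM (-0.90, SE 0.07) and from 16394 to 7021 CPM (-1.22, SE 0.05). Apoa4 rose from 169 to 2202 CPM (3.69, SE 0.13), and Abcb4, the canalicular phospholipid flippase, from 174 to 222 CPM (0.37, SE 0.07). Between labels on NC, 3 were higher and 3 lower in KO-labelled livers, where 7.08% of all genes were higher and 5.45% lower. Lipc, hepatic lipase (224 and 329 CPM, 0.55, SE 0.10, adjusted p = 6.71e-05), and Apoa2 (0.22, SE 0.05) were among those higher. Pdzk1, the adaptor that holds SR-BI at the membrane (62.1 and 53.4 CPM, -0.21, SE 0.06, adjusted p = 0.00744), was among those lower. Lipg, endothelial lipase, was lower on NC (-0.98, SE 0.24) and was the only one of the 12 to pass on cdHFD (-0.69, SE 0.19, adjusted p = 0.0145).

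SREBP2 targets, genes that cells switch on when sterols are scarce, are given as a reference for sterol state. All 12 were lower on cdHFD in both labels, with a median of -2.80 and -3.25, where 27.3% and 29.6% of all genes were lower. Cyp51 fell from 150 to 10.8 CPM (-3.78, SE 0.11) and Sqle from 91.9 to 3.43 CPM (-4.72, SE 0.17) in WT-labelled livers. Between labels, 7 of 12 were higher in KO-labelled livers on NC, with Cyp51 (0.67, SE 0.08) and Fdft1 (0.63, SE 0.10) in front, and 3 were lower on cdHFD, among them Fdft1 (-0.27, SE 0.07). Over all genes, 7.08% were higher on NC and 4.92% were lower on cdHFD.

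In WT-labelled livers on NC, the 5 members with a daily rhythm peaked in the light phase. A cosine of 24 hours passed in 5 of 10 genes in WT-labelled livers and 2 in KO-labelled livers on NC, where 18.7% and 4.35% of all genes passed, and in 6 and 2 on cdHFD, where 14.3% and 3.81% passed. Without the libraries against their label the counts were 5, 2, 5, and 0, where 2615, 617, 2025, and 527 of all 15548 genes passed. No member passed the test of a rhythm difference between labels on either diet, which 0.386% of all genes passed on NC and 0.431% on cdHFD, so a rhythm called in one label alone was not shown to differ from the other.

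**Figure D4:**
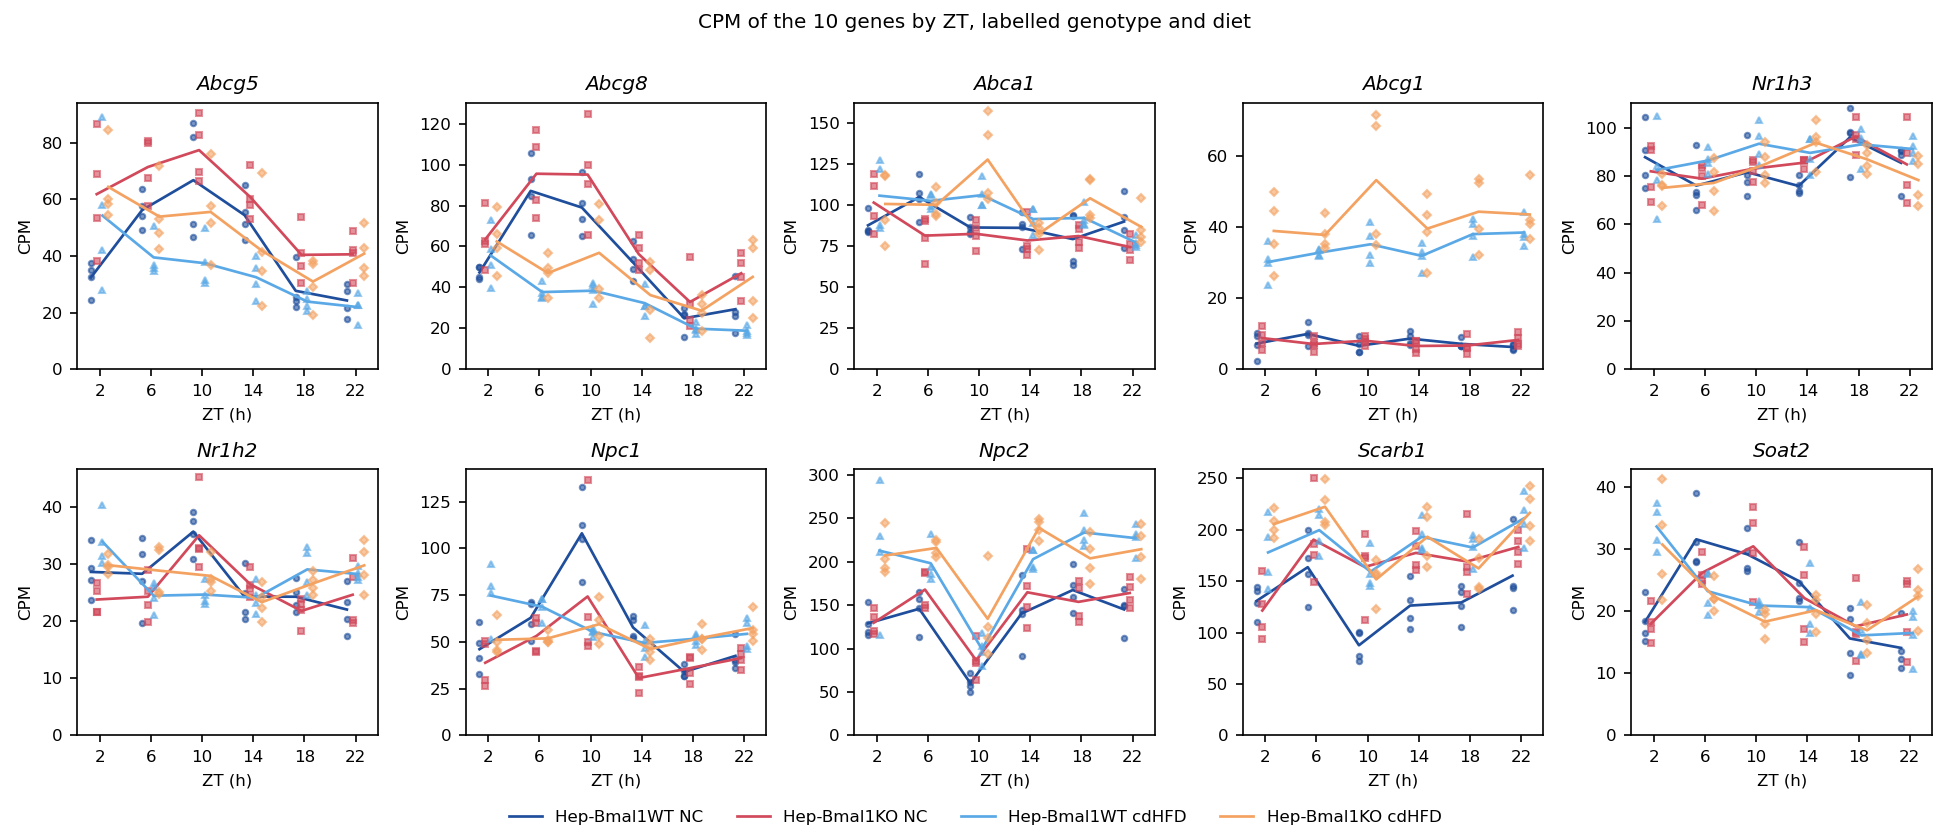
CPM (y axis, from 0) by ZT in hours (x axis) for each of the 10 genes, with 1 point per liver, lines through the means of 4 livers, and color by genotype label and diet. Abcg5 and Abcg8 are high in the light phase and low at ZT18 and ZT22 in WT-labelled livers, Npc1 has a sharp maximum of 108.0 CPM at ZT10 in WT-labelled livers on NC, and Npc2 is lowest at ZT10 in all 4 groups.

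Abcg8 had the largest rhythm, with means of 87.2 ± 16.8 CPM at ZT6 and 24.9 ± 6.2 CPM at ZT18 (SD, n = 4) in WT-labelled livers on NC. In that group the fitted amplitude on the log2 scale was 0.95 ± 0.09 (SE), with a peak at ZT 7.95 ± 0.37 (adjusted p = 3.9e-07). In KO-labelled livers on NC the amplitude was 0.77 ± 0.11 and the peak was at ZT 7.23 ± 0.54 (adjusted p = 0.000299). The rhythm thus passed in both labels on NC. Abcg5 had amplitudes of 0.78 ± 0.09 and 0.51 ± 0.09, with peaks at ZT 9.58 ± 0.43 and 8.20 ± 0.64. The rhythm difference between labels in Abcg5 had a p of 0.0103 before and 0.37 after adjustment.

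Soat2, Npc1, and Nr1h2 also passed in WT-labelled livers on NC. Soat2 averaged 31.6 ± 5.2 CPM at ZT6 and 14.1 ± 3.9 CPM at ZT22, with an amplitude of 0.63 ± 0.09 and a peak at ZT 8.92 ± 0.52. Npc1 averaged 108.0 ± 20.9 CPM at ZT10 and 33.995 ± 3.1 CPM at ZT18, with an amplitude of 0.67 ± 0.10 and a peak at ZT 9.13 ± 0.56. Nr1h2 was weaker, with an amplitude of 0.26 ± 0.08, a peak at ZT 8.08 ± 1.13, and an adjusted p of 0.0373, which rose to 0.058 in the cosinor F test on log2 CPM. In KO-labelled livers on NC, the adjusted p was 0.067 for Soat2, 0.10 for Npc1, and 0.15 for Nr1h2.

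The time course of Npc2 and Scarb1 was different, with a low point at ZT10. Npc2 read 49.6, 61.2, 57.2, and 72.5 CPM at ZT10 in WT-labelled livers on NC, against 92.02, 139.7, 144.9, and 185.0 CPM at ZT14. These 2 times did not overlap. The ZT10 mean was the lowest of the day in all 4 groups, at 60.1 ± 9.5, 86.5 ± 20.7, 99.4 ± 16.01, and 134.2 ± 49.98 CPM in WT-labelled livers on NC, Hep-Bmal1KO on NC, Hep-Bmal1WT on cdHFD, and Hep-Bmal1KO on cdHFD. The cosine passed for Npc2 in WT-labelled livers on cdHFD (amplitude 0.45 ± 0.11, peak at ZT 21.4 ± 0.96, adjusted p = 0.0155) and had an adjusted p of 0.079 in the same label on NC, at an amplitude of 0.45 ± 0.13. Scarb1 had its lowest mean at ZT10 in all groups but KO-labelled livers on NC, and no cosine passed for it (adjusted p = 0.16 to 0.73).

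On cdHFD, several members of WT-labelled livers peaked earlier than on NC. The test of a rhythm difference between diets passed for 4 members in this label, against 6.13% of all genes, and for the same 4 genes without the libraries against their label. It takes peak and amplitude together, so its adjusted p is not that of a peak shift alone. Npc1 peaked 5.34 ± 0.96 hours earlier (SE) with an amplitude lower by 0.38 ± 0.11 (adjusted p = 0.000156), and its highest mean moved from ZT10 to ZT2, where it read 75.9, 79.7, 91.7, and 51.6 CPM. Soat2 peaked 3.94 ± 1.19 hours earlier with an amplitude lower by 0.25 ± 0.14 (adjusted p = 0.0174). Its highest mean, 33.6 ± 3.7 CPM, was at ZT2. Abcg5 peaked 3.27 ± 1.12 hours earlier with an amplitude lower by 0.31 ± 0.16 (adjusted p = 0.0105). Nr1h2 peaked 8.70 ± 1.49 hours earlier at a like amplitude (difference -0.06 ± 0.09), at ZT 23.4 ± 0.97 (adjusted p = 0.00794). Of these, Npc1 passed whichever replicate was left out, and each of the other 3 was lost in at least 2 of the 4 cases.

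Not all members followed: Npc2 had a peak difference of 0.096 ± 1.49 hours between the diets in this label. Abcg8 moved in the direction of these 4, 1.49 ± 0.83 hours earlier with an amplitude lower by 0.35 ± 0.15, but did not pass (adjusted p = 0.11). In KO-labelled livers no member passed the test between diets, against 0.907% of all genes, and Soat2 came nearest (6.43 ± 1.48 hours earlier, adjusted p = 0.0601). The fitted peaks of Nr1h2 (7.89 ± 1.75 hours), Npc1 (4.10 ± 6.08), Abcg5 (2.90 ± 1.19), and Abcg8 (2.54 ± 1.37) were also earlier there. Those of Abca1, Abcg1, and Scarb1 were later. Whether the diet shift differed between labels was not tested. Arntl also moved earlier in WT-labelled livers, with its lowest median at ZT10 on NC and at ZT6, at 0.611 CPM, on cdHFD. Whether the shift in the members follows that of the clock was not tested.

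**Figure D5:**
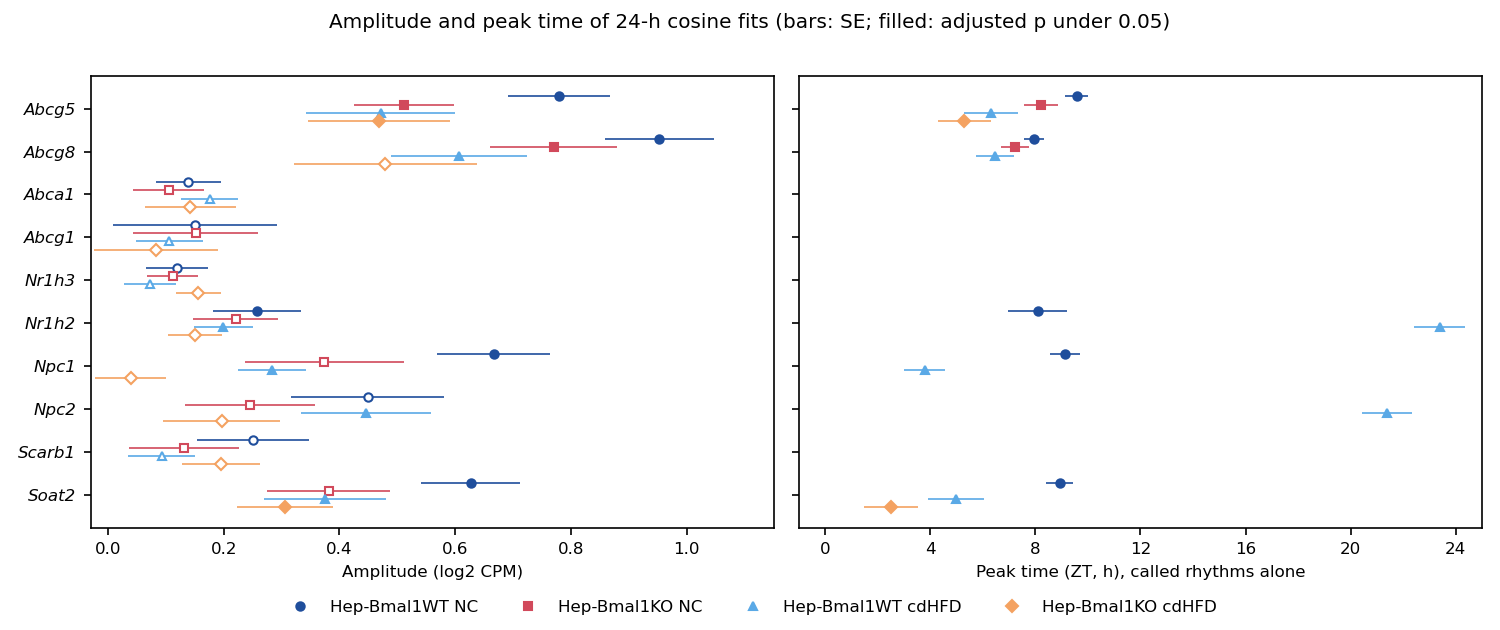
Amplitude on the log2 CPM scale (left, x axis) and peak time in hours of ZT (right, x axis) of the 24-hour cosine for each gene and group, with SE as bars. Filled symbols passed at an adjusted p under 0.05, and peak times are shown for these alone. The peaks of Abcg5, Abcg8, Npc1, and Soat2 in WT-labelled livers lie between ZT 7.95 and 9.58 on NC and between ZT 3.79 and 6.46 on cdHFD.

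Between the sexes, Npc2 was the only member to pass, against 17.2% of all genes. It was lower in the 49 males than in the 47 females (162 ± 53.3 against 176 ± 52.8 CPM, log2 fold change -0.14, SE 0.05, adjusted p = 0.0358), and the call was lost whichever replicate was left out (adjusted p = 0.076 to 0.18). No member passed the test of genotype by sex on NC, which 0.341% of all genes passed, or on cdHFD, which 0% passed. On NC, where the label comparison in females alone called none of the members and 554 of all 15548 genes, the 4 genes called over both sexes had the same directions in females, with log2 fold changes of 0.42 for Abcg5, 0.23 for Abcg8, 0.26 for Scarb1, and -0.23 for Npc1. Males alone called 1711 of all genes there. Most NC libraries against their label were from females, namely WT-labelled at ZT18 and KO-labelled at ZT6 and ZT10. Their part in the female result was not tested. The females are part of the libraries in which these 4 genes were called, so the like directions are not separate support.

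The genes most like each member were read from the same residuals over 96 libraries, as a description. Npc2 was closest to the lysosomal protease gene Ctsc (r = 0.73), followed by Serpinb6a (0.70) and Colec11 (0.69), and Scarb1 to the plasma protein genes Plg (0.69) and F2 (0.64) and to Cd81 (0.63). Npc1 was closest to N4bp2l1 (0.64), Erbb3 (0.61), and Ctdsp2 (0.61), and Nr1h3 to Arfgap2 (0.60), Fkbp4 (0.58), and Aspscr1 (0.55). For the other members the highest r with a gene outside the group ran from 0.43 for Abcg8 with Pnpla2, the adipose triglyceride lipase, to 0.53 for Abca1 with Sdcbp. Libraries share depth and normalization, so part of each r may be common to all genes.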

How the data were processed

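The authors separated BRB-seq reads by sample barcode, aligned them with STAR to the mm10 genome, and deposited the raw gene counts (HTSeq and featureCounts are both named). Versions, annotation, strand setting, and collapsing of molecular identifiers are not given in the sources used here, so depth limits cover counting error only. Groups were taken from the deposited labels, and replicate numbers were given in accession order and pair no mice. In R 4.3.3, genes with at least 100 counts in sum were tested with edgeR 4.0.16 (TMM, quasi-likelihood F test, Benjamini-Hochberg adjustment over 15548 genes, call at adjusted p under 0.05), with ZT as a factor. CPM are scaled by TMM. The 95% intervals use the normal approximation. Rhythms were tested with a cosine and a sine term of 24 hours, and amplitude, peak, and delta-method SE came from least squares on log2 CPM (prior count 2). A replicate left out is that number in every group. Numbers 1 and 2 were mostly males and 3 and 4 mostly females, so leaving out a number also shifts the balance of the sexes. Each number also held at least 1 library against its label. The code was tested on simulated data. Between 5.65% and 11.3% of reads fell on no gene and were left out. Members and lists were chosen with earlier results of these data known. Genes outside the group were named by smallest p per direction in each list, or highest r. Members named at single ZTs and the cell markers Gpnmb and Clec4f were chosen after their values were seen. DESeq2 1.42.0 served as an alternative. Promoter and protein sequences were not analysed here. A gene of the SREBP2 list that the rule would name is not reported here.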

Additional observations from a re-analysis of the deposited data

Results flagged for a closer look

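The genotype difference in Scarb1 differed between diets by the interaction test (log2 difference -0.33, adjusted p = 0.0478), as given above.

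In 240 groups of 4 livers, 5 values lay farther from the other 3 than Dixon's 95% limit allows, where chance gives about 1 in 20 groups. They were Abcg5 at 50.6 CPM on cdHFD at ZT6 (the others 34.6 to 36.9), Abca1 at 98.01 CPM on NC at ZT2 (83.8 to 84.8), Abcg1 at 9.14 CPM on NC at ZT18 (6.40 to 6.49), and Nr1h3 at 71.9 CPM on NC at ZT22 (88.7 to 90.96), all in livers labelled Hep-Bmal1WT. The remaining one was Nr1h3 at 82.9 CPM on NC at ZT14 in livers labelled Hep-Bmal1KO (86.1 to 86.6). None of the 5 libraries was among those against their label.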

How the results depend on the processing

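The 40 member values that passed were recomputed under 416 alternatives in all. Of these, 334 stayed past the threshold and 82 did not. None changed sign, but the rhythm amplitudes among them cannot be negative, so for these a kept sign was fixed in advance. The cosinor F test and the unadjusted threshold also left the fitted amplitudes as they were. Of 30 values that had not passed, 7 alternatives passed, and 39 of 342 changed sign, at sizes of at most 0.21 on the log2 scale.

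Leaving out each replicate number in turn, members called were 1 to 3 between labels on NC, 1 to 3 on cdHFD, 0 to 1 for genotype by diet, and 0 for sex. Calls over all 15548 genes fell as well. They were 938 to 1624 on NC (1948 in the main test), 535 to 1382 on cdHFD (1503), 103 to 373 for genotype by diet (473), and 1585 to 1930 for sex (2679). For rhythms, members called were 1 to 2 in livers labelled Hep-Bmal1KO on NC, 2 to 5 and 0 in livers labelled Hep-Bmal1WT and Hep-Bmal1KO on cdHFD, and 1 to 3 between diets in livers labelled Hep-Bmal1WT. Over all genes, in the same order, the calls were 155 to 189 (676 in the main test), 900 to 1509 (2231), 159 to 313 (592), and 351 to 526 (953). For genotype by ZT on NC, members called were 0 to 2, and calls over all genes were 4 to 95, against 98 in the main test. Females alone gave 0 on NC and 4 between diets in livers labelled Hep-Bmal1KO, and males alone gave 1 on cdHFD, with fewer libraries in each. Over all genes these settings called 554, 7539, and 794, against 1948, 9631, and 1503 in the main tests. Genotype by diet gave 0 with DESeq2's size factors (408 of 15548 genes called) and 0 with no filter beyond 1 count (407 of 26567), against 473 genes in the main test. Rhythms in livers labelled Hep-Bmal1KO on cdHFD gave 0 without the libraries against their label and 0 in the cosinor test (527 and 355 of all genes, against 592). An unadjusted p under 0.01 gave 4 rhythms in livers labelled Hep-Bmal1KO on NC and 2 differences between diets in that label (1403 and 831 of all genes). Genotype by ZT on NC gave 2 without the libraries against their label (265 of all genes, against 98). The cause was not tested. No paired analysis was possible because the labels carry no replicate numbers that pair mice.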
